A study of Mus musculus with 3 samples.

Results

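The expression of 9 genes was followed across the cell classes of 3 single-cell RNA libraries: Nkx2-1, Foxa2, Cebpa, Etv5, Sox9, Sox2, Hopx, Foxj1 and Elf3. They are transcription factors, and in the case of Hopx a transcriptional cofactor, that set and mark the lineages of the lung epithelium. They were taken by name, and all 9 were present among the 27998 genes listed. The libraries came from lungs of MMTV-HER2/Neu mice kept on the FvB background, in which the Neu oncogene is driven by a promoter active in mammary epithelium. The early HER2-negative library held CD45-HER2- cells, labelled non-cancer lung cells, from mice aged 14 to 18 weeks without palpable tumours. The early HER2-positive library held CD45-HER2+ cells, labelled breast cancer cells, from mice of the same age range and also without palpable tumours. The late HER2-positive library held CD45-HER2+ cells, also labelled breast cancer cells, from mice older than 20 weeks with tumours. Each group was 1 library, the number of mice in each is not given in the sources used here, and stage, age and library cannot be told apart. These are called the negative, the early and the late library from here on. No test between groups was therefore made, and every interval is an exact 95% interval for counting error only.

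Lung epithelium is built from a small set of factors used in different combinations. Nkx2-1, a homeodomain factor, and Foxa2, a forkhead factor, are needed from the first budding of the lung and keep acting in adult epithelium, where Nkx2-1 drives the surfactant protein genes. Cebpa and Etv5 are known for maintaining alveolar type 2 (AT2) cells, the surfactant-making progenitors of the alveolus, and Etv5 is a target of FGF receptor and MAP kinase signalling. Hopx marks alveolar type 1 (AT1) cells, the thin gas-exchange cells. Sox2 marks the conducting airway, Foxj1 is the master regulator of motile cilia, Elf3 is an ETS factor of many epithelia, and Sox9 marks the distal tips of the embryonic lung but is also used by cartilage and by mammary epithelium.

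Barcodes with at least 1000 unique molecular identifiers (UMIs, which count captured RNA molecules) and under 25% mitochondrial UMIs were kept, and each was put in the first class whose rule it met. The rules were Csn3 plus Wfdc18 at 1% of UMIs or more for mammary cells, Sftpc at 10% or more for AT2, at least 4 UMIs of Ager plus Rtkn2 for AT1, at least 3 of Ccdc153 plus Tmem212 for ciliated cells, at least 3 of Cyp2f2 for club cells, at least 2 of Cldn5 plus Cdh5 for endothelium, at least 2 of Higd1b, Cox4i2 and Myh11 for mural cells and at least 2 of Pdgfra plus Col1a2 for fibroblasts. None of the 9 factors was used in a rule. Kept cells numbered 6416 in the negative, 7622 in the early and 6012 in the late library, with median depths of 3166, 5318.5 and 8075 UMIs. Levels are UMIs of a gene summed over a class of 1 library and scaled to the usual CPM unit of depth-corrected counts. AT2 cells made up 46, 3939 and 3996 of the kept cells in that order, and AT1 cells 49, 238 and 108. Ciliated cells numbered 0, 86 and 119, and club cells 1, 58 and 55. Mammary-rule cells numbered 161 in the late library and 0 in the negative and early libraries. A count of 0 allows up to 0.0394% of the early cells, which are labelled as breast cancer cells. The limit covers only cells with Csn3 plus Wfdc18 at 1% of UMIs or more, so it does not bound breast cancer cells as labelled. Of 10 separate markers fixed for each class, 8 to 10 stood at 50 CPM or more and at least 3-fold above the rest of the library in every class of at least 50 cells. Leukocyte markers summed to between 10.7 and 128 CPM in the AT2, AT1, ciliated, club and mammary classes, with 0 to 9 of the 10 at 0, and their part in the results was not tested. Library pairs shared 10 to 18 kept barcodes.

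The label of the gene set was checked against where its UMIs lay. Of all UMIs in kept cells, AT2, AT1, ciliated and club cells held 65.0%, 4.06%, 1.52% and 1.15% in the early library. In the late library they held 71.6%, 2.27%, 2.19% and 1.15%. In the negative library AT2 cells held 1.54%, AT1 cells 1.52%, endothelium 75.5% and fibroblasts 15.1%. The shares below are to be read beside these. In the early library, AT2, AT1, ciliated and club cells together held 97.3% of Nkx2-1, 98.2% of Foxa2, 98.01% of Cebpa, 98.1% of Etv5, 96.3% of Elf3 and 99.6% of Foxj1 UMIs. These 6 factors were epithelial in the late library as well, at 94.7% for Etv5 and 97.1% or more for the others. For Sox2 the share was 83.3% in the early and 93.9% in the late library. Hopx and Sox9 went against the label in part. The 4 lung epithelial classes held 75.9% of Hopx UMIs in the early and 87.7% in the late library, with most of the remainder in endothelium. In the negative library, which held few epithelial cells, the 4 classes held 95.5% of Nkx2-1 and 95.1% of Foxa2 UMIs but 58.6% of the 128 Cebpa and 58.7% of the 201 Etv5 UMIs, with most of the others in endothelium and fibroblasts. There they held 25.9% of Hopx UMIs, against 68.9% in endothelium, and none of the 41 Sox9 or 6 Sox2 UMIs, and Foxj1 had no UMI. In the HER2-positive libraries they held 30.2% of the 96 Sox9 UMIs of the early and 8.02% of the 524 Sox9 UMIs of the late library.

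**Figure D1:**
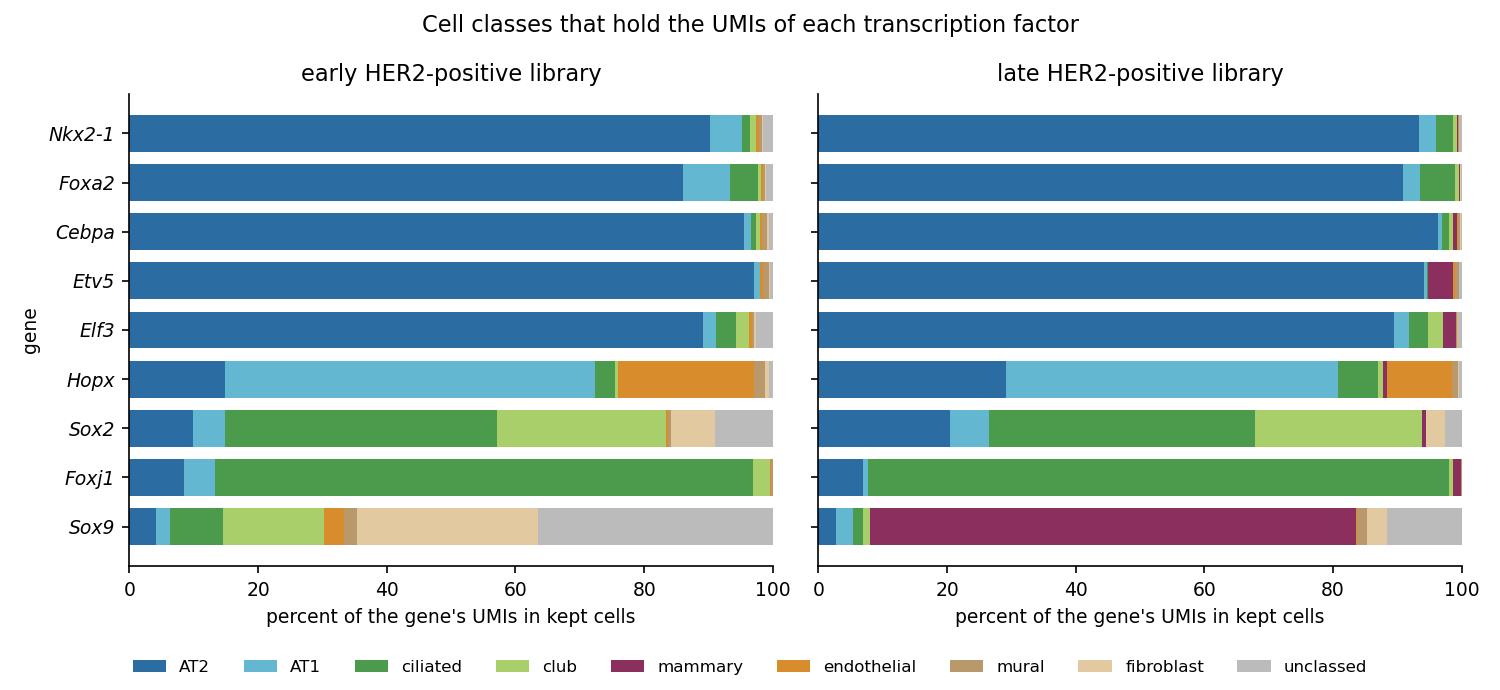
For each factor (vertical axis), the bar divides its UMIs in kept cells (percent, horizontal axis) among the cell classes of the early (left) and late (right) HER2-positive library. AT2 cells hold 86.0% to 97.0% of Nkx2-1, Foxa2, Cebpa, Etv5 and Elf3 UMIs in both libraries, while 75.6% of the late library's Sox9 UMIs lie in mammary-rule cells.

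The bases before each gene's start are shown for the 4 factors that were high together in AT2 cells and for Hopx and Sox2, which were highest in AT1 cells and in the airway classes respectively. The sequences are RefSeq promoter windows on GRCm38.p6, 5′ to 3′ on the gene's own strand, limited to bases before the annotated gene, which leaves 101 bases for Etv5. Capitals mark matches on either strand to the core motifs of the factors themselves: CTCAAG for NKX2-1, TGTTTAC and TATTTAC for forkhead factors, TTGCNNAA for C/EBP, CCGGAAG for ETS factors, and AACAAT and ACAAAG for SOX factors.
Nkx2-1, chr12:56536909-56537158, minus strand: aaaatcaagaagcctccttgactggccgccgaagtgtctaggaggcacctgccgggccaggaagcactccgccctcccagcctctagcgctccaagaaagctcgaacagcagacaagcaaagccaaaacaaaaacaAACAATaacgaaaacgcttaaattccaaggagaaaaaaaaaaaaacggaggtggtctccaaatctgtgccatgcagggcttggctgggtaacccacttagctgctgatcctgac
Foxa2, chr2:148046970-148047219, minus strand: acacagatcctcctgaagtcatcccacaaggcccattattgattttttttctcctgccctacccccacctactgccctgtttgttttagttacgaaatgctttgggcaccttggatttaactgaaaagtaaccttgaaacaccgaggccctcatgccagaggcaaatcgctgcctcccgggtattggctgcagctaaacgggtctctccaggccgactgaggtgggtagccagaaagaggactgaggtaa
Cebpa, chr7:35119043-35119292, plus strand: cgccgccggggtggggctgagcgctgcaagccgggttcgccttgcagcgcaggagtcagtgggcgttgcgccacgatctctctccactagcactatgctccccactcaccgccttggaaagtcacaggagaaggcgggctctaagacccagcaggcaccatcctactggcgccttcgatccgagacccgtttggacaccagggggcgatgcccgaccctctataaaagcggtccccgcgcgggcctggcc
Etv5, chr16:22439720-22439820, minus strand: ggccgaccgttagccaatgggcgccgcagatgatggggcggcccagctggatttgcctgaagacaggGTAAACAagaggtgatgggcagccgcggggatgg
Sox2, chr3:34649745-34649994, plus strand: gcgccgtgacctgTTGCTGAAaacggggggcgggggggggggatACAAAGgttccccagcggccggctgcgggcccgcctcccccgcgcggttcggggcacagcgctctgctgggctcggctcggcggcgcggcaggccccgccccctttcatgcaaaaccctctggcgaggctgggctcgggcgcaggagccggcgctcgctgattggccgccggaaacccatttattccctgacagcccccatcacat
Hopx, chr5:77115124-77115373, minus strand: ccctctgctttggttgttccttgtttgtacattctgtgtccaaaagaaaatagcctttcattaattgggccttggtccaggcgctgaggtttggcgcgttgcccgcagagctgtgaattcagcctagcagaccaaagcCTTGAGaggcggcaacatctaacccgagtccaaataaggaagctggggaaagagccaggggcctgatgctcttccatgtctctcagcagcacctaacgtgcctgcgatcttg

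Promoter windows of 250 bases were found for 7 of the 9 factors, 11 start sites in all; Sox9 and Foxj1 had no entry. A motif of the 7 occurred in 6 of the 11 windows (54.5%), against 47.5% of all 32851 windows searched, so matches were about as common here as elsewhere. Etv5 carried the forkhead core TGTTTAC, on the minus strand of the gene, 183 bases before its first start site, and 3.17% of all windows hold that core. Nkx2-1 carried AACAAT 114 bases before its start, a core held by 9.42% of windows. Hopx carried CTCAAG, on the minus strand of the gene, 112 bases before its first start site, a core held by 13.3% of windows. At start site 2 Hopx carried TATTTAC, held by 2.73% of windows, at 198 bases and AACAAT at 179 bases before the start. Foxa2 had no match at start site 1, the window printed above, or at start site 2. At start site 3 Foxa2 carried CTCAAG at 187 and ACAAAG at 171 bases before the start. Sox2 held TTGCNNAA at 237 and ACAAAG at 206 bases before its start, cores found in 9.56% and 16.5% of windows. A match describes letters in the window and not a bound site.

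In the GENCODE annotation of the same build, Nkx2-1 (ENSMUSG00000001496) spans chr12:56531958-56536908 on the minus strand and Foxa2 (ENSMUSG00000037025) chr2:148042877-148046969 on the minus strand. Cebpa (ENSMUSG00000034957) lies at chr7:35119293-35121928 on the plus strand, Etv5 (ENSMUSG00000013089) at chr16:22381309-22439719 on the minus strand and Hopx (ENSMUSG00000059325) at chr5:77086988-77115121 on the minus strand. Sox2 (ENSMUSG00000074637) lies at chr3:34650405-34652461 and Sox9 (ENSMUSG00000000567) at chr11:112782224-112787760, both on the plus strand. Foxj1 (ENSMUSG00000034227) at chr11:116330704-116335399 and Elf3 (ENSMUSG00000003051) at chr1:135253575-135258568 are on the minus strand. All 9 are annotated as protein-coding.

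AT2 cells carried Nkx2-1, Foxa2, Cebpa and Etv5 at nearly the same level in the early and late libraries. Nkx2-1 stood at 231 CPM (225 to 236) in early and 218 CPM (214 to 223) in late AT2 cells, from 6684 and 7990 UMIs. Foxa2 was at 83.5 CPM (80.2 to 86.9) and 89.1 CPM (86.1 to 92.2). Cebpa was at 189 CPM (184 to 194) and 204 CPM (199 to 208), and Etv5 at 310 CPM (303 to 316) and 283 CPM (278 to 289). The negative library held only 46 AT2 cells, and there the same factors read 233, 98.3, 205 and 320 CPM, with intervals of 186 to 289 for Nkx2-1 and 264 to 385 for Etv5. All 3 libraries thus gave AT2 cells with the same 4 factors, whichever HER2 gate they came through.

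Single cells showed the same set. A UMI of Nkx2-1 was found in 76.5% of early and 81.8% of late AT2 cells, and of Etv5 in 82.1% and 86.3%. All 4 factors were detected together in 22.4% of early and 31.2% of late AT2 cells, and none of them in 2.46% and 0.901%. AT2 cells had median depths of 7138 UMIs in the early and 8837 in the late library, so the cells were also compared after thinning each to 1000 UMIs. At that common depth none of the 4 was seen in 44.4% of early and 44.9% of late AT2 cells, and 2 or more in 15.3% and 15.4%. Endothelial cells, which should lack Nkx2-1, held a UMI of it in 1.53% (early) and 0.630% (late) of cells at median depths of 3738.5 and 5383.5 UMIs. After thinning, Nkx2-1 was seen in 21.3% of early and 19.7% of late AT2 cells, against 0.332% of early endothelial cells and 0 of 476 late ones, which allows up to 0.630%.

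The 4 factors did not all extend to the other lung epithelial classes. Nkx2-1 was in every one, at 205 and 197 CPM in AT1, 143 and 191 CPM in ciliated and 122 and 97.1 CPM in club cells of the early and late libraries. The AT1 class stood at 0.887 (0.797 to 0.985) and 0.902 (0.788 to 1.03) of AT2 for Nkx2-1, which became 1.26 and 1.67 with AT1 cells limited to those with Ager plus Rtkn2 at 0.5% of UMIs or more, and club cells stood at 0.531 (0.407 to 0.680) and 0.445 (0.336 to 0.577) of AT2. Among the classes as ruled, Foxa2 was highest in ciliated cells, at 181 CPM (151 to 216) early and 174 CPM (151 to 201) late. This was 7.77-fold (4.29 to 15.5) and 5.12-fold (3.22 to 8.56) above club cells. AT1 cells at or above the 0.5% limit read 181 CPM (155 to 210) early and 146 CPM (112 to 187) late for Foxa2. Their intervals overlapped those of ciliated cells in both libraries. Cebpa and Etv5 were highest in AT2 cells in both libraries. Cebpa in club cells was 0.402 (0.286 to 0.550) and 0.310 (0.218 to 0.427) of its AT2 level, and Etv5 0.0502 (0.0217 to 0.0990) and 0.0120 (0.00146 to 0.0435), the last from only 2 club UMIs. Outside epithelium Nkx2-1 was at or below 9.53 CPM in every endothelial, mural and fibroblast group.

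**Figure D2:**
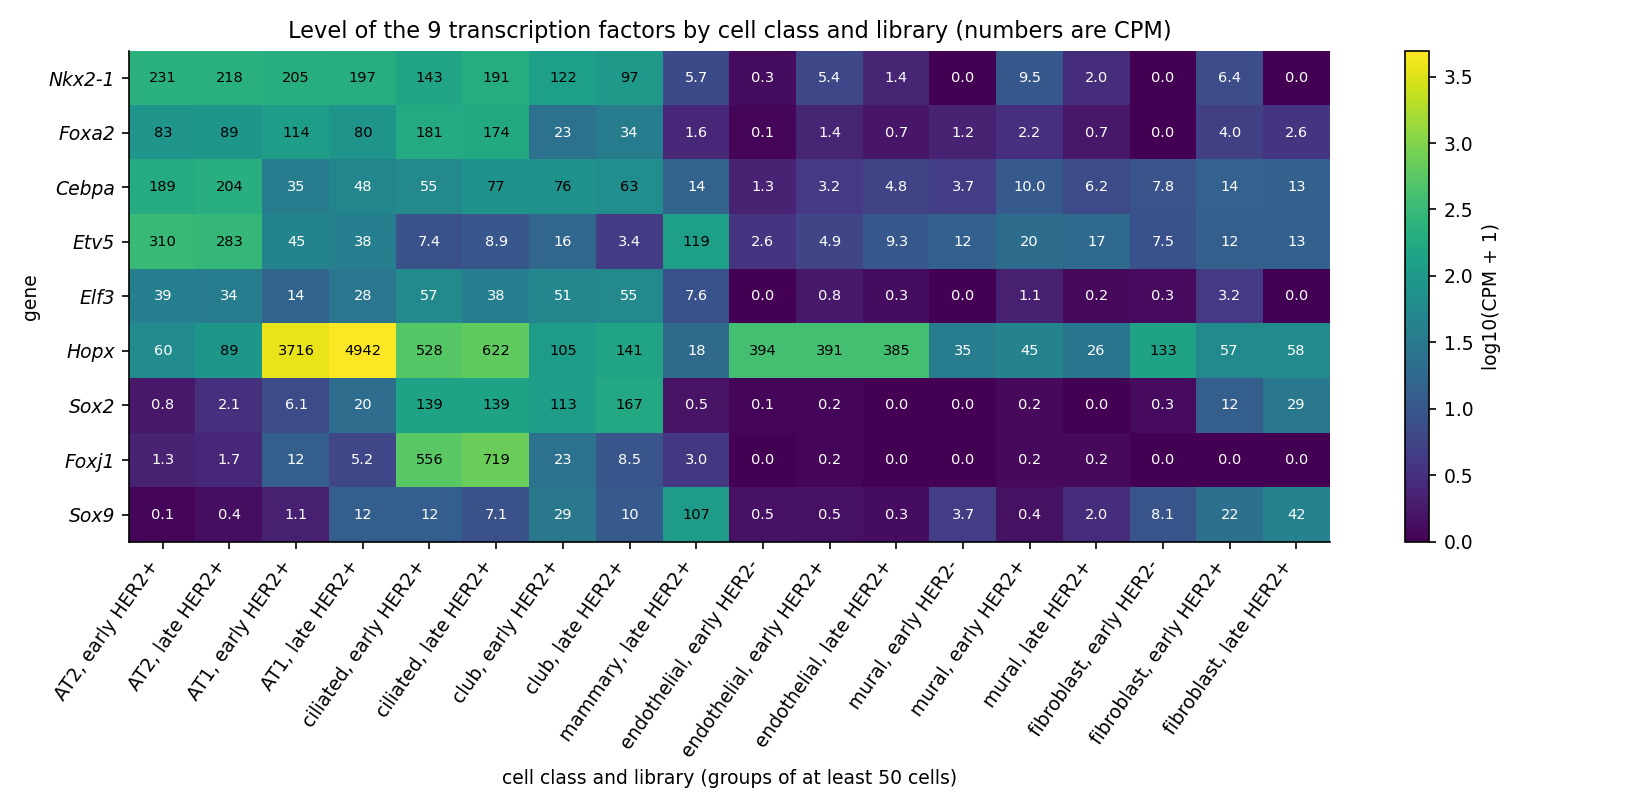
Each tile gives the level of 1 factor (vertical axis) in 1 cell class of 1 library (horizontal axis), printed in CPM and coloured by log10(CPM + 1). Nkx2-1 runs across all 4 lung epithelial classes, Etv5 stands out in AT2 and mammary-rule cells, Hopx peaks in AT1 cells, Foxj1 peaks in ciliated cells and Sox9 in mammary-rule cells.

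Cell-free RNA held these genes too. Barcodes with 1 to 100 UMIs read 13.5, 99.9 and 145 CPM for Nkx2-1 and 17.2, 162 and 204 CPM for Etv5 in the negative, early and late libraries. Hopx read 385, 261 and 245 CPM there, above its AT2 and club levels in the HER2-positive libraries, and Sox9 read 10.9 CPM in the late library. Low readings of these factors in other classes of the HER2-positive libraries therefore sit beside a background that carries them, and its part in those readings was not tested.

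AT1 cells held the highest level of Hopx in each library. It stood at 3716 CPM (3627 to 3806) in early and 4942 CPM (4815 to 5072) in late AT1 cells, 62.1-fold (58.9 to 65.5) and 55.7-fold (53.3 to 58.2) above AT2 cells of the same library. In the 49 AT1 cells of the negative library it was 7315 CPM (7035 to 7604). The AT1 rule admitted cells of more than 1 kind. In the HER2-positive libraries 88 of 238 early and 54 of 108 late AT1-class cells had Ager plus Rtkn2 under 0.5% of their UMIs, and these cells carried the club cell secretoglobin Scgb1a1 at 25602 and 314780 CPM. Of the cells in the AT1 class, 22 early and 12 late ones sat exactly at the 4-UMI threshold.

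With AT1 cells limited to those with Ager plus Rtkn2 at 0.5% of UMIs or more, a limit chosen after the data were seen, Hopx differed further between libraries. It was 8421 CPM (8093 to 8760) in 40 negative cells, 6432 CPM (6274 to 6594) in 150 early cells and 12437 CPM (12104 to 12777) in 54 late cells. The late level was 1.93-fold (1.86 to 2.01) the early level. Cell by cell the quartiles were 4451 to 8998 CPM around a median of 6367 in early and 8038 to 14283 CPM around a median of 12124 in late cells, so the ranges between quartiles overlapped. With 1 library a side, the spread between mice is not known.

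**Figure D3:**
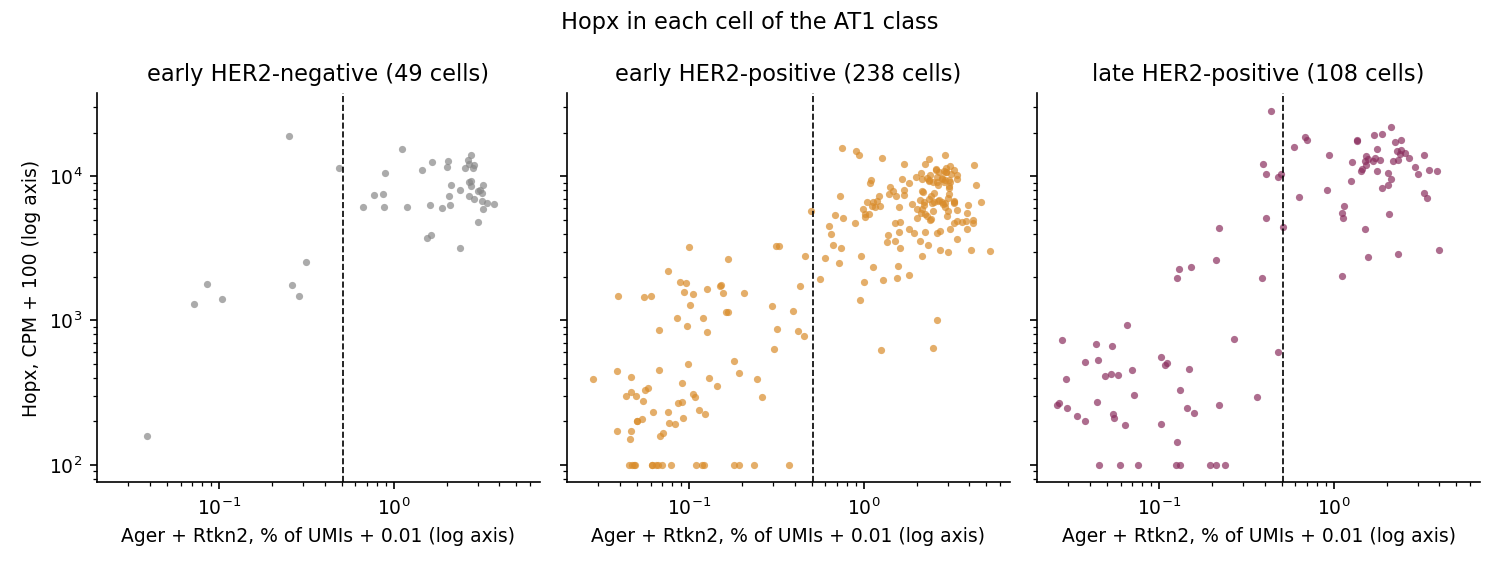
Each point is 1 cell of the AT1 class, with its Ager plus Rtkn2 share of UMIs (percent + 0.01, log axis) against its Hopx level (CPM + 100, log axis), in 1 panel per library. Cells right of the dashed 0.5% line have a median Hopx level of 7627 CPM in the negative, 6367 in the early and 12124 in the late library, and most cells left of it lie lower.

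The other factors were read in the same stricter AT1 set. Nkx2-1 was at 291 CPM (258 to 327) early and 365 CPM (310 to 428) late, and Foxa2 at 181 and 146 CPM, above the AT2 level of each in both libraries. Cebpa read 7.21 and 4.71 CPM (7 and 2 UMIs) and Etv5 13.4 and 2.36 CPM (13 and 1 UMIs), whereas the whole AT1 class read 34.9 and 48.4 CPM for Cebpa and 45.4 and 38.0 CPM for Etv5. Sox2 read 1.03 CPM in the early set and was not seen in the late set, and Foxj1 was seen in neither. In these cells, then, Nkx2-1 and Foxa2 were present with Hopx, while the AT2 factors Cebpa and Etv5 were low.

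Hopx UMIs were also found outside AT1 cells. Ciliated cells held 528 CPM (474 to 585) early and 622 CPM (577 to 670) late, with a Hopx UMI in 77 of 86 and 119 of 119 cells. Foxj1 and Hopx were found together in 70 of 86 and 119 of 119 ciliated cells. Club cells were lower, at 105 and 141 CPM, so ciliated cells stood 5.03-fold (3.77 to 6.82) and 4.40-fold (3.50 to 5.59) above them. AT2 cells held 59.8 CPM (57.0 to 62.7) early and 88.7 CPM (85.7 to 91.8) late, and 20 early and 39 late AT2 cells exceeded 1000 CPM. Those few cells, 0.508% and 0.976% of the class, held 19.2% and 25.7% of the AT2 Hopx UMIs. Endothelium carried Hopx at 394, 391 and 385 CPM in the negative, early and late libraries, with overlapping intervals. Within endothelium it went with Car4, a marker of the aerocyte type of lung capillary cell: cells with a Car4 UMI read 719, 690 and 739 CPM in that order, and cells without one 220, 193 and 176 CPM. Cells with a Car4 UMI were also deeper, with median depths of 3395, 4306 and 6113 UMIs against 2901, 3458 and 4857. Gpihbp1, a gene of general capillary cells, gave no such constant split: cells without a Gpihbp1 UMI read 1018, 468 and 98.1 CPM of Hopx and cells with one 318, 373 and 457 CPM, so the direction turned in the late library.

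Sox2 and Foxj1 marked the airway. Sox2 was at 139 CPM (112 to 170) in early and 139 CPM (118 to 162) in late ciliated cells, and at 113 CPM (85.6 to 146) and 167 CPM (136 to 203) in club cells. Ciliated and club intervals overlapped in both libraries. Club cells stood 148-fold (89.5 to 255) and 79.3-fold (58.3 to 108) above AT2 cells, where Sox2 read 0.760 and 2.10 CPM. Foxj1 was at 556 CPM (501 to 615) in early and 719 CPM (671 to 771) in late ciliated cells, which held 83.6% and 90.4% of all its UMIs. A Foxj1 UMI was present in 78 of 86 early and 119 of 119 late ciliated cells, and Sox2 was found beside it in 49 and 76 of them. In endothelium Foxj1 had a UMI in 1 of 1508 early and 0 of 476 late cells. Nearly all ciliated cells also met the club rule, 83 of 86 early and 118 of 119 late, since they carry Cyp2f2 UMIs; the order of the rules placed them as ciliated.

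Of 39 other regulators of lung epithelium found in the files, 5 are described here that were chosen after their values were seen, so they say nothing of the list as a whole. Myb and Trp73, factors of multiciliated cells, stood at 169.5 and 142 CPM and at 50.1 and 42.9 CPM in early and late ciliated cells, against 0.104 and 0.0820 CPM for Myb in AT2. Trp63, the factor of basal airway cells, was at 117 and 118 CPM in club cells and 0.414 and 0.0820 CPM in AT2 cells, and 4 of 5 basal markers (Krt5, Trp63, Krt14, Krt15 and Aqp3) stood out in the club class of each library. Tead1, a partner of the YAP and TAZ coactivators, was at 344 and 283 CPM in AT1 and 42.7 and 42.4 CPM in AT2. Tfcp2l1 was at 120 and 118 CPM in AT2 and 22.1 and 29.4 CPM in AT1.

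Elf3 was detected in all 4 lung epithelial classes. It was at 38.6 and 34.1 CPM in AT2, 14.4 and 27.7 CPM in AT1, 57.5 and 38.4 CPM in ciliated and 50.5 and 54.5 CPM in club cells of the early and late libraries. The ciliated and club intervals overlapped in both, and early AT1 cells stood at 0.372 (0.242 to 0.549) of AT2 and late ones at 0.812 (0.553 to 1.15), an interval that includes 1. In endothelium it read 0.791 CPM or less.

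Sox9 was low in AT2 cells and, in the late library, highest in mammary-rule cells. AT2 cells held 4 Sox9 UMIs in 3939 early and 14 in 3996 late cells, at 0.138 CPM (0.0376 to 0.354) and 0.383 CPM (0.209 to 0.642). Club cells read 29.2 CPM (16.3 to 48.1) early and 10.2 CPM (3.75 to 22.2) late, but 73.3% of the early value came from 1 cell. In the late AT1 class 78.6% of 14 Sox9 UMIs came from 1 cell. Mammary-rule cells of the late library held 107 CPM (96.8 to 118), with a Sox9 UMI in 121 of 161 cells. Fibroblast-class cells read 8.06, 21.8 and 42.1 CPM in the negative, early and late libraries, from 28, 27 and 16 UMIs, and 62.5% of the late UMIs came from 1 cell. Unclassed cells held 35 of the 96 early Sox9 UMIs, in 5 cells.

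The late library held both mammary-rule and AT2 cells, and most of the 9 factors differed between them. Sox9 was 279.8-fold (165 to 517) higher in mammary-rule than in AT2 cells, from 396 and 14 UMIs; the ratio was 162 with halved and 2841 with doubled class thresholds. Nkx2-1 was at 5.68 CPM (3.51 to 8.68), 0.0260 (0.0161 to 0.0398) of its AT2 level, and Foxa2 at 1.62 CPM (0.595 to 3.53), 0.0182 (0.00668 to 0.0397) of it. Cebpa was at 14.1 CPM, 0.0691 (0.0515 to 0.0907) of AT2, Hopx at 18.1 CPM, 0.204 (0.158 to 0.260), and Elf3 at 7.57 CPM, 0.222 (0.147 to 0.323). Among the AT2 factors Etv5 stood closest to its AT2 level: 119 CPM (108 to 131), 0.420 (0.381 to 0.462) of AT2, with a UMI in 125 of 161 cells. Over the 10 alternative settings the Etv5 ratio ran from 0.275 (genes above 0.5% of UMIs left out) to 0.432 (exactly 1 rule). Sox9 and Etv5 were found together in 102 of the 161 cells. Sox2 was 0.257 (0.0306 to 0.960) of AT2 from 2 mammary UMIs, in 1 cell. Foxj1 read 1.76-fold (0.833 to 3.36) higher, but 90.9% of its 11 mammary UMIs were in 1 cell, and without the richest cell in each class the ratio was 0.236. In all, 2 of the 9 factors were at least 1.5-fold higher and 7 at least 1.5-fold lower, where 69.2% of all 13746 genes with 10 UMIs were past 1.5-fold, 45.2% higher and 24.0% lower.

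Mammary-rule cells had a median depth of 22179 UMIs, and 19 of the 161 also met the rule of another class. In the 142 that met no other rule, Nkx2-1 read 2.64 CPM from 8 UMIs, Foxa2 0.660 CPM from 2, Hopx 10.6 CPM, Etv5 110 CPM and Sox9 109 CPM. Without the cells that met other rules, Nkx2-1, Foxa2 and Hopx read lower than in the whole class. The intervals of Sox9, Etv5, Nkx2-1 (1.14 to 5.20) and Foxa2 (0.0800 to 2.39) overlapped those of the whole class. With background RNA taken off at 5% of UMIs, Nkx2-1 and Foxa2 were at 0 in mammary-rule cells. The 5% was assumed and not estimated, and values below 0 were set to 0. The part of background in these readings was therefore not tested.

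**Figure D4:**
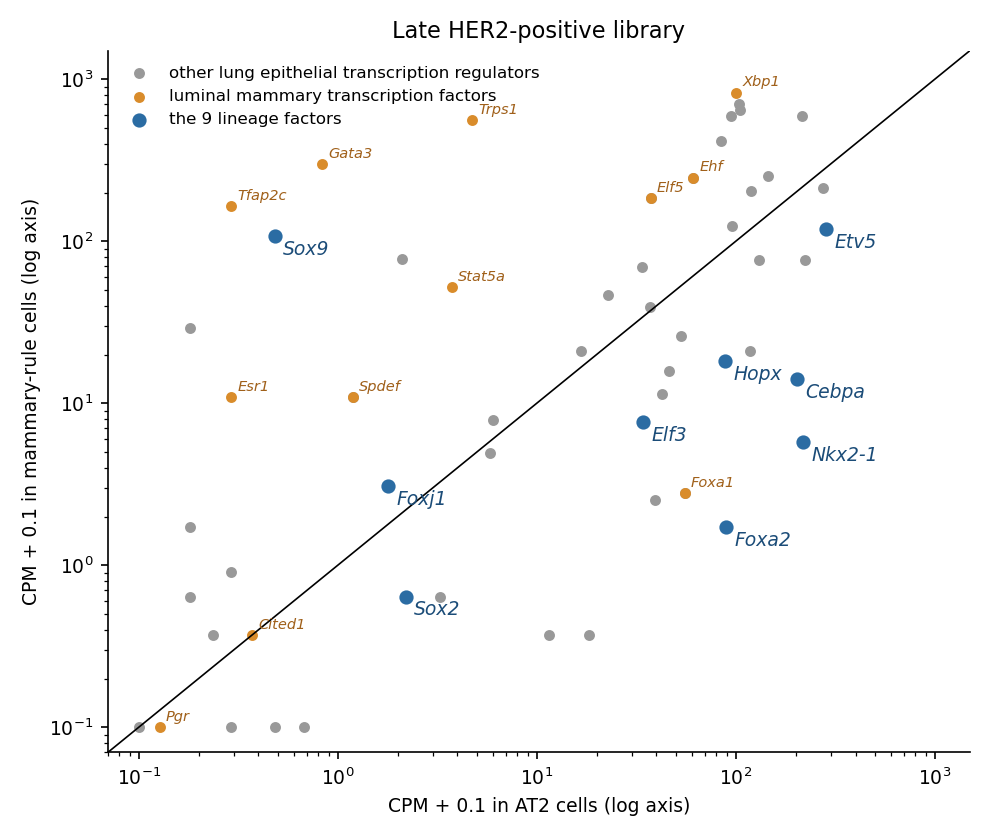
Each point is a gene of the late library, with its level in AT2 cells (CPM + 0.1, log axis) against its level in mammary-rule cells (CPM + 0.1, log axis); the line marks equal levels and luminal mammary transcription factors are drawn in orange, the 9 factors in blue and other lung epithelial regulators in grey. Sox9 lies with Gata3, Tfap2c and Trps1 above the line, Nkx2-1, Foxa2 and Cebpa lie far below it, and Etv5 lies closest to it among the factors of AT2 cells.

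Gene lists around the factors were compared between the same classes, and their counts stand beside those shares of 45.2% and 24.0% over all genes. Of 14 surfactant and AT2 genes, 13 were at least 1.5-fold lower in mammary-rule cells, with a median log2 ratio of -5.21 against 0.43 over all genes. Lyz2 (lysozyme) was 0.0179, Sftpd 0.0204 and Sftpa1 0.0224 of the AT2 level. The 1 higher was Etv4, the close relative of Etv5, at 28.9 against 0.0820 CPM (107 and 3 UMIs), a ratio of 353 (118 to 1738). The lists overlap, so their counts are not separate. Etv4 is also among the FGF receptor signalling genes and the other lung epithelial regulators. Foxa1, Spdef, Ehf and Elf5 are in both the luminal mammary and the other lung epithelial lists. Of 12 luminal mammary transcription factors, 11 had enough UMIs, and 9 were higher and 1 lower, with a median log2 ratio of 3.31. Tfap2c was at 164 CPM, Gata3, the luminal GATA factor, at 299.6 CPM and Trps1 at 557 CPM, 859-fold, 406-fold and 121-fold their AT2 levels. The 1 lower was Foxa1, a forkhead paralogue of Foxa2, at 2.70 CPM or 0.0489 (0.0234 to 0.0900) of AT2. Of 11 FGF receptor signalling genes, 4 were higher and 5 lower, with a median log2 ratio of -0.53. Spry4 and Dusp6, feedback inhibitors induced by MAP kinase signalling, were 16.6-fold and 8.93-fold higher, and the receptors Fgfr2 and Fgfr3 were 0.0357 and 0.178 of AT2. Of 34 other lung epithelial regulators with enough UMIs, 15 were higher and 13 lower, with a median log2 ratio of 0.35. Among them were Grhl1 38.8-fold higher, Spdef 9.89-fold higher and Foxp2 at 0.0149. Of 15 AT1 genes, 12 were lower and 2 higher: Aqp5, 24.1-fold (23.6 to 24.7) at 6961 CPM, and Vegfa, 1.75-fold (1.57 to 1.95).

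Between the early and late libraries, Nkx2-1, Foxa2, Cebpa, Etv5 and Elf3 differed little within AT2 cells. In AT2 cells the early to late ratio was 1.06 (1.02 to 1.09) for Nkx2-1, 0.937 (0.888 to 0.988) for Foxa2, 0.927 (0.895 to 0.960) for Cebpa and 1.09 (1.06 to 1.12) for Etv5. Over the 10 alternative settings tried these 4 ratios stayed between 0.860 and 1.13. Elf3 was 1.13 (1.05 to 1.23). Counting intervals here are narrow because many cells were summed, and they do not contain the spread between mice. No factor was at least 1.5-fold higher in early AT2 cells and 2 were lower, where 18.9% of 14230 genes were past 1.5-fold, 15.3% higher and 3.66% lower. These were Sox2 at 0.361 (0.214 to 0.586), from 22 and 77 UMIs, and Sox9 at 0.361 (0.0865 to 1.15), from 4 and 14 UMIs, whose interval includes 1 and which was 1.31 with doubled class thresholds. Hopx lay just inside the threshold at 0.674 (0.635 to 0.715), and was 0.651 (0.611 to 0.693) in AT2 cells with Ager plus Rtkn2 under 0.5% of UMIs and 0.934 in cells meeting exactly 1 class rule, which leaves out the 3057 of 3939 early and 3422 of 3996 late AT2 cells that also met the AT1 rule.

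The AT2 cells with a Sox2 UMI carried airway transcripts. The 46 late ones held Scgb1a1 at 38620 CPM and Cyp2f2 in 42 cells, with Sftpc at 194551 CPM and a median depth of 11702 UMIs against 8837 for the class. Of the 20 early ones, 6 held ciliary genes such as Fam183b, Tmem212 and Foxj1. The part of these transcripts in the Sox2 ratio was not tested.

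In AT1 cells 1 of the 9 factors was higher and 3 lower in the early library, where 39.5% of 11091 genes were past 1.5-fold, 34.1% higher and 5.38% lower. Foxj1 was 2.35-fold (0.923 to 7.08) higher from 22 and 6 UMIs. Of 16 motile cilium genes with enough UMIs in these AT1-class cells, 11 were also higher and 1 lower, with a median log2 ratio of 1.03 against 0.38 over all genes, and the part of ciliary transcripts in the Foxj1 ratio was not tested. Sox9, at 0.0915 (0.0101 to 0.398), Sox2, at 0.306 (0.135 to 0.654), and Elf3, at 0.520 (0.298 to 0.901), were lower. Most of the late Sox9 UMIs came from 1 cell, which the counting interval does not cover. Over the alternative settings the Sox9 ratio ran from 0 (exactly 1 rule) to 0.696 (halved thresholds). All 2 early and 14 late Sox9 UMIs lay in AT1-class cells with Ager plus Rtkn2 under 0.5% of UMIs. So did all 22 early and 6 late Foxj1 UMIs, and 10 of 11 early and 23 of 23 late Sox2 UMIs. Of the Elf3 UMIs, 16 of 26 early and 23 of 32 late ones lay there. The 7 early and 8 late AT1-class cells with a Sox2 UMI held Scgb1a1 at 82768 and 479851 CPM, and the part of such cells in these ratios was not tested. Among 15 AT1 genes, 4 were at least 1.5-fold higher in early than in late AT1-class cells and 0 at least 1.5-fold lower. The ratios included 1.92 for Igfbp2, 1.91 for Gprc5a and 1.65 for the water channel Aqp5. The median log2 ratio of the list was 0.44 against 0.38 over all genes. AT1-class cells with Ager plus Rtkn2 under 0.5% of UMIs held 835632 of 1807131 early and 733016 of 1157236 late AT1-class UMIs. The part of these cells in the ratios of the AT1 genes was not tested. Hopx was 0.752 (0.726 to 0.779). Doubled class thresholds also raised the Sftpc limit, so cells that no longer met the AT2 rule could enter the AT1 class. The smaller AT1 group then held 559 cells in place of 108. Under that setting the Hopx ratio changed direction to 1.14, so it describes a different mix of cells. With the 0.5% limit the Hopx ratio was 0.517. The Foxj1 ratio changed direction to 0.575 with doubled and 0.113 with halved thresholds.

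In ciliated cells 1 factor, Sox9, was past the threshold, at 1.65 (0.540 to 5.04) from 8 UMIs in each library, where 24.5% of 10184 genes were, 13.1% higher and 11.4% lower. Foxj1 was 0.772 (0.682 to 0.874), Hopx 0.848 (0.745 to 0.965), Nkx2-1 0.748 (0.582 to 0.955), Sox2 1.0003 (0.766 to 1.301) and Foxa2 1.04 (0.823 to 1.31). Of 19 motile cilium genes with enough UMIs, 18 were within 1.5-fold and Cfap52 was lower, at 0.464 (0.259 to 0.793). In club cells 3 factors were higher in the early library, where 41.7% of 7836 genes were past 1.5-fold, 32.3% higher and 9.42% lower: Etv5 at 4.57 (0.911 to 44.1), Foxj1 at 2.74 (0.898 to 9.93) and Sox9 at 2.85 (1.05 to 8.98), each from 21 UMIs or fewer over both libraries. Most early club Sox9 UMIs came from 1 cell, and without the richest cell of each library the Sox9 ratio was 1.14. Motile cilium genes were higher in early club cells too, 10 of 10 (median log2 ratio 2.05 against 0.27 over all genes). Their part in these ratios was not tested. Of surfactant and AT2 genes 5 of 13 were higher, and of AT1 genes 5 of 12, both near the 32.3% of all genes. Sox2 was 0.676 (0.480 to 0.944) and Nkx2-1 1.26 (0.868 to 1.84). Nothing particular to the factors is read from these counts over 9 genes.

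**Figure D5:**
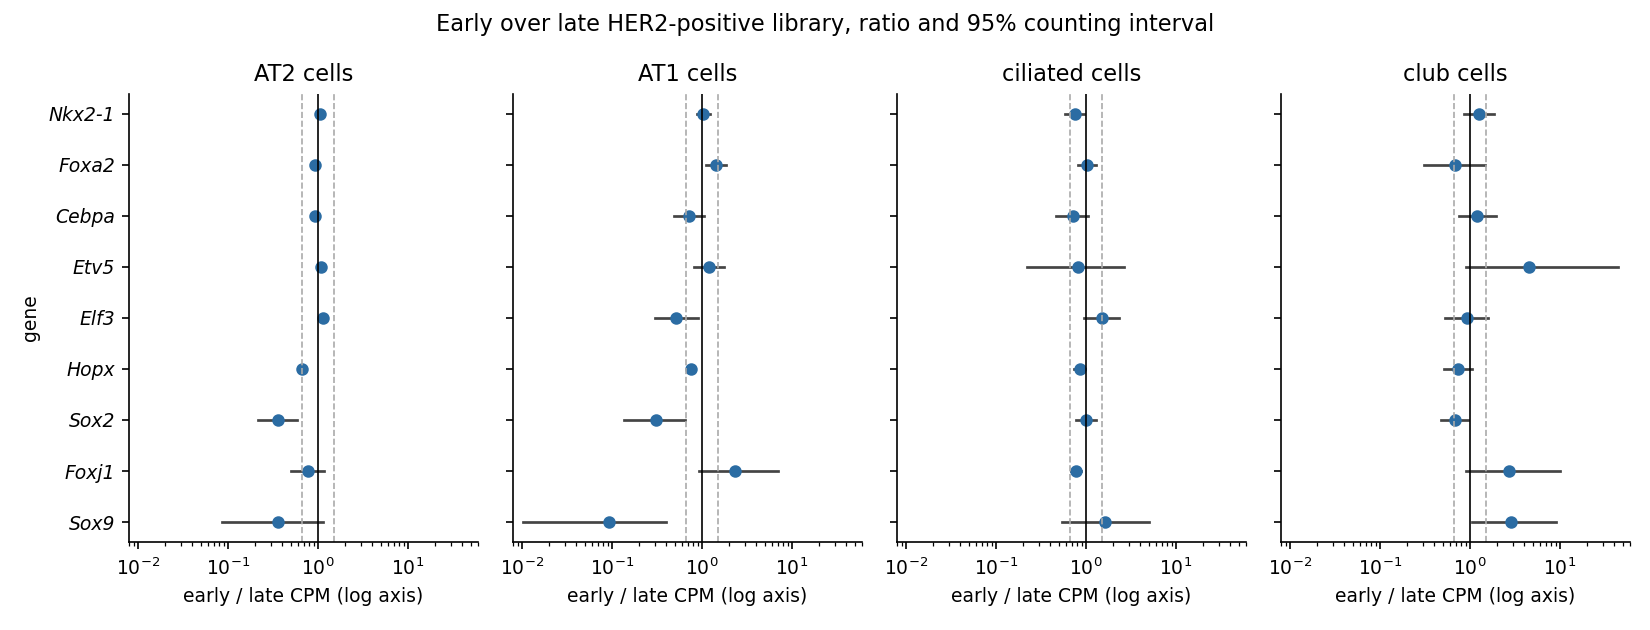
Points give the early over late ratio of CPM (log axis) for each factor (vertical axis) in 4 cell classes, bars the 95% counting interval, and dashed lines 1.5-fold either way. In AT2 cells Nkx2-1, Foxa2, Cebpa, Etv5 and Elf3 lie between 0.927 and 1.13, while Sox2 lies at 0.361.

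Of the AT2 genes around the factors, 0 of 13 surfactant and AT2 genes with enough UMIs were past 1.5-fold between early and late AT2 cells, with a median log2 ratio of 0.00 against 0.10 over all genes. Of 10 FGF receptor signalling genes, Il17rd was 4.12-fold (2.43 to 7.30) and Spry4 1.81-fold (1.21 to 2.72) higher in the early library, and Spry2 was lower at 0.610 (0.564 to 0.660). Of 35 other regulators, 2 were higher and 2 lower, against 15.3% and 3.66% of all genes, and 1 of these 4 had 30 UMIs or more over the pair. The higher ones were Trp63 (12 and 3 UMIs) and Mcidas (18 and 14), and Gmnc (8 and 21) was among the lower.

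Across the 18 class and library groups of at least 50 cells, genes with the pattern most like each factor were ranked by the Pearson correlation of log2(CPM + 1) over 6741 genes. These values describe groups that share libraries and depth. Foxj1 was nearest to Dynlrb2 (r = 0.998), Meig1 and Dnah5, of which Dynlrb2 and Dnah5 encode dynein subunits. Elf3 was nearest to Foxa1 (0.972), Foxa2 to Fgf1 (0.979), Nkx2-1 to Prr15l (0.967) and Cebpa to Ttc7 (0.977) and Met (0.966). Etv5 was nearest to Acaca (0.928), Scd1 (0.916) and Exosc7 (0.911), of which Acaca and Scd1 are lipid synthesis genes. Sox2 was nearest to Gfra1 (0.963), Hopx to Itga3 (0.892) and Sox9 to Iqgap2 (0.834). Among the 9 themselves Nkx2-1 was closest to Foxa2 (0.947) and Elf3 (0.947), and the highest correlation of Sox9 was 0.524, with Sox2.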

How the data were processed

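Unfiltered gene by barcode matrices of raw UMI counts were deposited by the authors, whose matrix software is 3.1.0 per the file headers. Submitters' processing notes name mm10 as the build. The aligner is not given in the sources used here, nor is the annotation. Each library lists 6794880 barcodes and totals 25610135, 49248126 and 54961019 UMIs. Counts were summed per class and library with Python 3.11.15, numpy 2.4.6, scipy 1.17.1 and pandas 2.3.3. Intervals are exact (Poisson for levels, conditional binomial for ratios, Clopper-Pearson for shares) at 95%, and a count of 0 allows up to 3 counts. Ratios needed 10 UMIs over the pair, and 1.5-fold was the size threshold. The interval function was tested on simulated counts. No doublets were removed, and no sample was left out. Named genes are the 9 factors, the 3 genes most alike to each among genes with 50 CPM in a group, and up to 3 highest and 3 lowest of each list past 1.5-fold; Myb, Trp73, Trp63, Tead1, Tfcp2l1 and the genes of single-cell subsets were chosen after their values were seen. The members, lists and markers were chosen with earlier results of these data known. Alternatives are described in the closing section.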

Additional observations from a re-analysis of the deposited data

How the results depend on the processing

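Each level and ratio was recomputed with a minimum of 500 or 2000 UMIs, a mitochondrial limit of 10%, class thresholds doubled or halved, cells meeting exactly 1 class rule, genes above 0.5% of any group's UMIs left out, equal weight per cell, background RNA taken off at 5%, and without the cell richest in the gene. An AT1 class by 0.5% of UMIs was added after seeing the data. Groups under 20 cells gave no value, which removed the ciliated class under exactly 1 rule. At 500 and at 2000 UMIs, 98 of 98 ratios stayed within their main interval. The number of factors past 1.5-fold in the mammary comparison was 7 to 9 throughout, with 69.2% of all genes past it in the main setting. In AT2 (2 factors) it was 0 with cells of exactly 1 rule, where 16.0% of all genes were past the threshold. It was 1 with doubled thresholds (13.4% of all genes) and 1 at 30 UMIs (14.1%). In AT1 (4) it was 7 with equal weight per cell and 2 at 30 UMIs. In ciliated cells (1) it was 2 at 2000 UMIs, at 10% mitochondrial, with doubled thresholds and with background taken off, 3 with halved thresholds, 4 without the richest cell, and 0 with equal weight, at 30 UMIs and at 2-fold. In club cells (3) it was 6 without the most abundant genes (38.4% of all genes) and 5 with equal weight (43.4%). It was 1 without the richest cell (41.6%) and 0 at 30 UMIs (29.2%). The other lung regulators past 1.5-fold in AT2 were 1 at 30 UMIs in place of 4. The cause of these shifts was not tested. No paired analysis was possible because each group is 1 library.

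Hopx early over late ranged in AT2 from 0.611 (background taken off) to 0.934 (exactly 1 rule), and in AT1 from 0.517 (0.5% rule) to 1.14 (doubled thresholds). The last is a change of direction, in a class that then also took in cells dropped by the doubled Sftpc limit. Smaller early over late ratios also crossed 1: in AT1 Cebpa ran to 1.53 (0.5% rule), Etv5 to 0.558 (exactly 1 rule, against 5.68 with the 0.5% rule) and Nkx2-1 to 0.797 (0.5% rule), in AT2 Foxj1 to 1.21 (halved thresholds), in ciliated cells Etv5 to 2.02 (doubled), Foxa2 to 0.877 and Sox2 to 0.794 (both 10% mitochondrial), and in club cells Cebpa to 0.893 and Elf3 to 1.09 (both 10% mitochondrial) and Foxa2 to 1.06 (doubled). Ratios past 1.5-fold that changed direction follow. The cause was not tested. Early over late, Sox9 in AT2 was 1.31 with doubled thresholds, Foxj1 in AT1 was 0.575 with doubled and 0.113 with halved thresholds, and Etv5 in club cells was 0.709 with halved thresholds. Foxj1 in mammary over AT2 was 0.236 without the richest cell. For AT1 over AT2, Sox2 was 0 with exactly 1 rule in both HER2-positive libraries. With the 0.5% rule Foxj1 was 0 in both, and Sox9 and Sox2 were 0 in the late library. For ciliated over club, Etv5 was 2.32 (early) with halved thresholds, 0.991 (late) at 10% mitochondrial and 0.379 (late) with doubled thresholds, and Sox9 was 1.14 (early) without the richest cell. For club over AT2, early Hopx was 0.959 with halved thresholds and late Foxj1 was 0 at 10% mitochondrial. Depth limits all ratios of Sox9, Sox2 and Foxj1 outside their main classes.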

Other observations

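Cells outside the lung epithelial classes that held Sox9, Sox2 or Nkx2-1 fell into recurring sets of genes; these subsets were looked at after their values were seen, and no cell type is named for them. In the early HER2-negative library the 21 fibroblast-class or unclassed cells with a Sox9 UMI carried Dcn in 21 and Fbln1 in 20 cells, both fibroblast matrix genes. In the early HER2-positive library 8 of 20 such cells carried Cytl1, 8 Chad and 8 Col11a1, and 5 carried Col2a1, the fibrillar collagen of cartilage. In the late HER2-positive library the 23 unclassed cells with a Sox9 UMI carried Trf in 23, Trps1 in 20, Gata3 in 18 and Csn3 in 16 cells, with Csn3 at 1855 CPM, below the 1% rule for mammary cells. They held 61 Sox9 UMIs, 11.6% of the library's total.

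Of 23 early HER2-positive fibroblast-class or unclassed cells with a Sox2 UMI, 21 carried Kcna1 and 20 Cdh19. In the late library Kcna1 was in 15 of 16 such cells. The 61 early unclassed cells with an Nkx2-1 UMI carried Malat1 at 90087 CPM against 27321 over all kept cells of that library, and Sftpc at 65157 CPM, below the 10% rule for AT2. The 4 early club-class cells with Sox9 UMIs carried Krt5, a keratin of basal cells, and the water channel gene Aqp3 in all 4.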
